A study of Homo sapiens with 14 samples.

Results

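The collagen genes were followed across all groups of the series. Members were all protein-coding genes whose symbol is COL, a number, A and a number, in GENCODE v44, which gave 44 of 20149 protein-coding genes. They fall into 11 fibrillar collagens, 8 collagens of the basement membrane, 10 FACIT collagens and 15 others.

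Collagens are the main structural proteins of the extracellular matrix. Each molecule is a helix of chains that may come from the same gene or from different genes. Fibrillar collagens (types I, III and V among others) build the fibres of connective tissue. Basement membrane collagens form sheet-like networks (type IV) or are linked to them (types XV and XVIII, also called multiplexins). FACIT collagens sit on fibrils without forming fibrils themselves, and the remaining members include the beaded filaments of type VI, the anchoring fibrils of type VII and collagens that span the cell membrane. Before secretion the chains are hydroxylated and folded, and afterwards their ends are trimmed and the fibres are crosslinked. Fibroblasts are the main source of these proteins in connective tissue.

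All libraries came from poly(A) RNA of IMR90, which are primary human fetal lung fibroblasts, in 7 groups. Isolates I79 and I10 of these cells were each sampled young and old, that is, before and after passaging to senescence. Each of these groups has 1 deposited column although the titles list 2 replicates each. I79 was also sampled after ICM (inflachromene, a small molecule that binds HMGB1 and HMGB2) in 2 libraries, with no dose or time in the labels. The last groups were WT (wild type, 2 libraries) and HMGB2 KD (knockdown of HMGB2, a chromatin protein, by siRNA, 2 libraries), and the labels do not say from which isolate these came or whether WT received a control siRNA. The labels do not say whether replicates came from separate cultures, so p-values measure the spread between these libraries only.

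Depth ran from 33561766 to 41168932 counts over WT and HMGB2 KD and from 14991385 to 20632959 over the young and old columns, and was 13290131 and 10971132 for ICM. HMGB2 itself measured 27.1 and 27.3 CPM (counts scaled to library size) in the WT libraries against 3.22 and 3.64 CPM after knockdown. All 8 fibroblast markers were at 1 CPM or more in every WT, HMGB2 KD, young and old library. In the same libraries KRT5, SFTPC and CDH5 were at 0, while the summed epithelial list (5 markers) ranged from 0.321 to 7.82 CPM, most of it KRT19 in the young columns, and VWF reached 2.82 CPM.

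Collagens took a large part of these libraries. Their share of all counts was 3.62% and 4.45% in WT and 5.15% and 6.38% in HMGB2 KD, so that both knockdown libraries lay above both WT libraries. For I79 it was 4.47% when young and 3.78% when old, and for I10 4.23% and 4.08%. It stood at 1.36% and 1.41% in the ICM libraries. Fibrillar collagens alone held 2.43% of counts in I79 young and 1.29% in I79 old, and 2.28% and 1.74% in I10 young and old. Other collagens, mostly type VI, held 1.25% and 1.66% in I79 young and old and 1.29% and 1.52% in I10. Within each isolate the fibrillar share was thus lower in the old column and the share of the others higher. The 3 kinds of table were counted in different ways, so these shares are compared within a kind only.

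**Figure D1:**
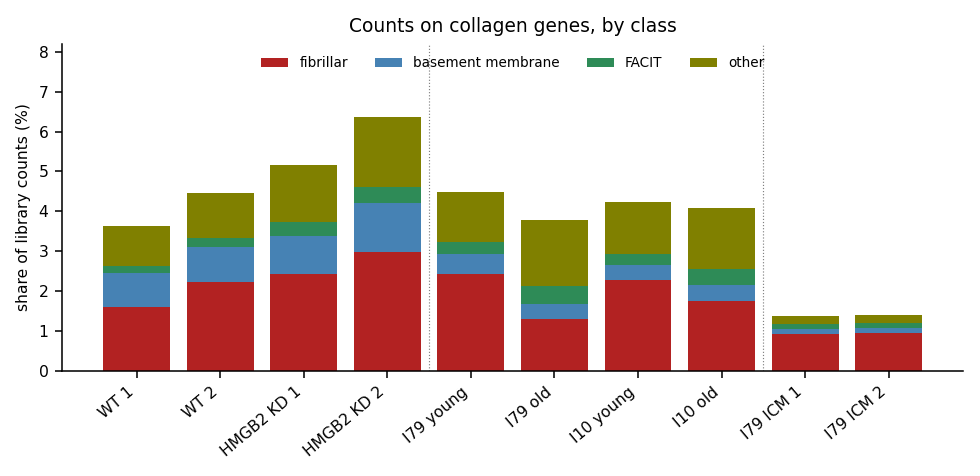
Share of all library counts (%) that fell on collagen genes in each library, stacked by class, with dotted lines between the 3 kinds of table. Both HMGB2 KD bars (5.15% and 6.38%) exceed both WT bars, and the ICM bars reach 1.36% and 1.41%.

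Per length of transcript, the type I chains COL1A1 and COL1A2 led in most libraries. In WT, COL1A2 stood at 591 and 780 RPKM (counts scaled to the length of the merged exons and to library size) and COL1A1 at 565 and 901 RPKM, so the order of the pair differed between the WT libraries. In HMGB2 KD, COL1A1 was first with 1221 and 1579 RPKM, ahead of COL1A2 with 878 and 1022 RPKM. On the deposited TPM scale (transcript abundance adjusted for length and library size), COL1A1 was first in both young columns, with 3067 TPM in I79 and 2946 TPM in I10. In I79 old the first was COL6A2, with 1994 TPM, followed by COL1A2 with 1960 TPM, while COL1A1 had 1266 TPM. In I10 old the first was COL1A2, with 2727 TPM. The ICM libraries had COL1A2 first (381 and 388 RPKM) and COL1A1 next (337 and 324 RPKM). At the other end, COL20A1 had 0 counts in all WT and HMGB2 KD libraries, which allows up to 3 counts each, or 0.0894 CPM in the shallowest of them.

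Several members lie beside another on the chromosome, and the type IV genes do so head to head. By the outermost start of each gene in GENCODE (GRCh37), the start sites of COL4A1 and COL4A2, the most abundant basement membrane chains here, lie 1345 bases apart on chromosome 13, those of COL4A3 and COL4A4 171 bases apart on chromosome 2, and those of COL4A5 and COL4A6 341 bases apart on chromosome X. RefSeq promoter windows (GRCh38.p14, 250 bases before to 50 after a start) matched 32 of the 44 members. There was no entry for COL1A1, COL1A2, COL2A1, COL3A1, COL5A2, COL6A1, COL6A5, COL8A1, COL9A3, COL14A1, COL20A1 or COL22A1. The RefSeq starts lie elsewhere, 127 bases apart for COL4A1 and COL4A2, 419 for COL4A3 and COL4A4 and 380 for COL4A5 and the nearer start of COL4A6. The windows of COL4A1 and COL4A2 share 226 bases, those of COL4A5 and COL4A6 share 121 (for the upstream one of the 2 COL4A6 windows) and those of COL4A3 and COL4A4 share 82. The windows of the expressed pairs are shown because each pair reads its shared stretch in opposite directions, and because the results give both genes of each pair side by side. Capitals mark the CCAAT box, the TATA box letters (TATAAA) and the GC box letters (GGGCGG), on either strand.
COL4A1, chr13:110307108-110307407, minus strand: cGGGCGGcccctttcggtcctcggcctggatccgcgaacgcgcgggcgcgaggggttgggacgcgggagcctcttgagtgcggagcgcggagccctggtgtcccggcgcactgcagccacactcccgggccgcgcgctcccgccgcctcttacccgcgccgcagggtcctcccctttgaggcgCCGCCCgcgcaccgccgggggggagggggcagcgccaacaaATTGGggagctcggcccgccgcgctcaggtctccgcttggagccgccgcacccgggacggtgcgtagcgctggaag
COL4A2, chr13:110307034-110307333, plus strand: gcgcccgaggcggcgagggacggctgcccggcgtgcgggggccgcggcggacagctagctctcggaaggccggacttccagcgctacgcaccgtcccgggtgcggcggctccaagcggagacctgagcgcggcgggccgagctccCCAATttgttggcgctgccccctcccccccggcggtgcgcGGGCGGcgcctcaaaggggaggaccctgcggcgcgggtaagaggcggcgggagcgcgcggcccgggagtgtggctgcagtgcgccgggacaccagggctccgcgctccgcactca
COL4A5, chrX:108439588-108439887, plus strand: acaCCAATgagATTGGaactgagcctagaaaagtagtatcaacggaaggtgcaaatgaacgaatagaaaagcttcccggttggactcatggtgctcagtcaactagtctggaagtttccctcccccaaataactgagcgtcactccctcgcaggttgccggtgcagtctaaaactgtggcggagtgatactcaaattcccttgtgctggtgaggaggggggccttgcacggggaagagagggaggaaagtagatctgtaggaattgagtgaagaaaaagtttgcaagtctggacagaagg
COL4A6, chrX:108439409-108439708, minus strand: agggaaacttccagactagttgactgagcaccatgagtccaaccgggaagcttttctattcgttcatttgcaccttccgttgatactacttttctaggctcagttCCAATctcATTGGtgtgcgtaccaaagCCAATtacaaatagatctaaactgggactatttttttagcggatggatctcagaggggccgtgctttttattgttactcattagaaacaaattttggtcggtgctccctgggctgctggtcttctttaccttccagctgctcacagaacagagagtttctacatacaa

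The COL4A1 and COL4A2 windows hold the same CCAAT box, read once on each strand. GGGCGG occurs 2 times in the COL4A1 window and 1 time in that of COL4A2. The COL4A5 window has 2 CCAAT matches and that of COL4A6 has 3. None of these 4 windows holds TATAAA. Over all 35116 windows of the table, 34.6% hold CCAAT, 11.5% hold TATAAA and 45.0% hold GGGCGG on either strand. Among the 44 collagen windows, some of which repeat a gene, 14 hold CCAAT, 8 hold TATAAA and 24 hold GGGCGG. None of these motifs contains another, and a match is a description of the window only.

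HMGB2 KD against WT asks which transcripts differ when HMGB2 is depleted. Collagens moved in both directions: COL5A3, COL5A1, COL12A1, COL1A1, COL15A1 and COL6A3 rose and COL3A1, COL14A1 and COL7A1 fell. Of the 44 members, 30 passed the filter on low counts, and 9 of these were called (adjusted p below 0.01 by edgeR quasi-likelihood, with a change of more than 0.6 on the log2 scale), against 5.20% of the 15338 genes tested. By direction, 6 rose (2.86% of all genes tested did) and 3 fell (2.34% did). The median log2 fold change over the 30 was 0.49, and over all genes it was 0.00. The 14 members left out had at most 16 counts in any library. All 9 called members had WT and HMGB2 KD libraries that did not overlap, as had 21 of the 30 tested and 53.8% of all genes tested.

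The fibrillar class held 4 of the 9 calls, and its chains went apart. COL3A1, the chain of type III collagen (chromosome 2, 189839099 to 189877472, plus strand), measured 2811 and 3521 CPM in the WT libraries against 1331 and 1465 CPM after knockdown, with means of 3166 ± 502 and 1398 ± 95 CPM (SD, n = 2). The 2 groups did not overlap, and COL3A1 fell by 1.18 (log2, SE 0.16, adjusted p 0.000380, edgeR quasi-likelihood). COL1A1, the major chain of type I collagen (chromosome 17, 48261462 to 48278993, minus strand), measured 4993 and 7924 CPM in the WT libraries against 11154 and 14686 CPM after knockdown. Its log2 fold change was 1.00 (SE 0.21, adjusted p 0.00639, edgeR quasi-likelihood), although the WT libraries themselves lay 1.59 times apart. COL1A2, the other type I chain, measured 6260 and 8231 CPM in the WT libraries against 9633 and 11414 CPM after knockdown, a log2 fold change of 0.54 that was not called (adjusted p 0.0558, edgeR quasi-likelihood).

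Type V collagen takes part in starting fibrils. COL5A3 measured 17.5 and 17.6 CPM in the WT libraries against 39.7 and 52.6 CPM after knockdown. This was the largest called change of the members, at 1.40 (SE 0.16, adjusted p 0.000103, edgeR quasi-likelihood). COL5A1 measured 413 and 565 CPM in the WT libraries against 861 and 1388 CPM after knockdown, and rose by 1.20 (SE 0.21, adjusted p 0.00235, edgeR quasi-likelihood). In both genes the higher HMGB2 KD library stood well above the lower one. COL5A2, which is paired with COL5A1 in the common form of type V, measured 1147 and 1470 CPM in the WT libraries against 1481 and 1773 CPM after knockdown and was not called (log2 fold change 0.31, adjusted p 0.270, edgeR quasi-likelihood). The remaining tested fibrillar members, COL11A1, COL24A1 and COL27A1, had log2 fold changes between -0.12 and 0.38 and overlapping groups.

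In the basement membrane class, 1 of 6 tested members was called. COL15A1, which lies at the outer face of basement membranes, measured 36.8 and 44.7 CPM in the WT libraries against 63.8 and 86.9 CPM after knockdown, a rise of 0.89 (SE 0.16, adjusted p 0.00259, edgeR quasi-likelihood). The other multiplexin, COL18A1, which carries endostatin, measured 665 and 649 CPM in the WT libraries against 860 and 1138 CPM after knockdown and was not called (log2 fold change 0.60, adjusted p 0.0254, edgeR quasi-likelihood). The type IV pairs stood on opposite sides of 0 without a call. COL4A1 had a log2 fold change of 0.59 and COL4A2 one of 0.28, while COL4A5 had -0.46 and COL4A6 had -0.42. Each head-to-head pair whose windows are printed above thus had the same sign in both genes, and none of the 4 genes passed the threshold.

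The FACIT class had a call in each direction among 7 tested members. COL12A1, which decorates type I fibrils, measured 1595 and 1964 CPM in the WT libraries against 3451 and 3793 CPM after knockdown, so that its WT libraries lay far below those of the knockdown. It rose by 1.03 (SE 0.16, adjusted p 0.000889, edgeR quasi-likelihood). COL14A1, a close relative that also binds fibrils, measured 45.0 and 51.3 CPM in the WT libraries against 25.4 and 23.2 CPM after knockdown. It fell by 0.99 (SE 0.14, adjusted p 0.000453, edgeR quasi-likelihood). The 2 relatives therefore moved in opposite directions.

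Of the other collagens, COL6A3 rose and COL7A1 fell. COL6A3, the large chain of type VI, measured 4565 and 5478 CPM in the WT libraries against 7669 and 9576 CPM after knockdown and rose by 0.78 (SE 0.16, adjusted p 0.00706, edgeR quasi-likelihood). Its partner chains had changes of a like size, 0.67 for COL6A1 (adjusted p 0.0199) and 0.65 for COL6A2 (adjusted p 0.0222, both edgeR quasi-likelihood), that were not called. COL7A1, the chain of the anchoring fibrils, measured 563 and 427 CPM in the WT libraries against 289 and 269 CPM after knockdown and fell by 0.83 (SE 0.16, adjusted p 0.00375, edgeR quasi-likelihood). COL8A1 was close to 0 in this comparison, with 427 and 365 CPM against 381 and 404 CPM and overlapping groups. COL8A2 and COL10A1 had the largest fitted changes of all, 2.07 and 1.94, from at most 76 counts in any library, and were not called.

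**Figure D2:**
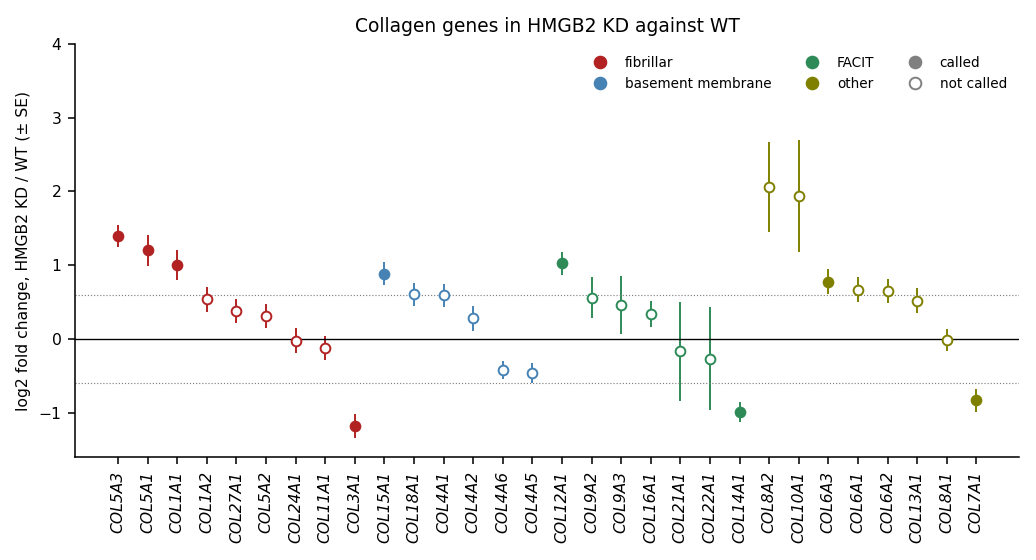
Log2 fold change of each tested collagen gene in HMGB2 KD against WT with its standard error (y axis), by gene and class (x axis), where filled points were called by edgeR and dotted lines mark 0.6 in each direction. COL5A3 (1.40) leads the called genes and COL3A1 (-1.18) is lowest.

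The HMGB2 KD calls rested in part on single libraries. With HMGB2 KD replicate 2 left out, 3 members were called (COL5A3 higher, COL3A1 and COL14A1 lower), and with WT replicate 1 left out there were 6, in fits where the lone library is assumed to vary like the other group. COL3A1, COL14A1 and COL5A3 were called under all 10 alternatives tried. COL1A1 and COL5A1 were not called by the DESeq2 Wald test or without HMGB2 KD replicate 2 (adjusted p 0.0834 and 0.0285 there, edgeR quasi-likelihood). COL15A1 and COL6A3 were not called without WT replicate 1 or without HMGB2 KD replicate 2, nor COL12A1 without the latter. COL7A1 was not called without WT replicate 1, where its log2 fold change was -0.62, or without either HMGB2 KD library. Among cell type markers, 1 of 3 muscle markers, MYOCD, was above 1 CPM, and the summed level of the muscle list was 36.6 to 55.0 CPM in WT and 75.8 to 84.8 CPM in HMGB2 KD, with MYH11 at 0 throughout. The fibroblast list summed to 4969 to 5733 CPM in WT and 6151 to 6362 CPM in HMGB2 KD, but its markers did not move together. VIM and PDGFRB were called higher (log2 fold change 0.78 and 1.06), and FAP and S100A4 had 0.24 and 0.29. PDGFRA had -0.70, LUM -0.31, THY1 -0.13 and DCN -0.04, none of them called. The part of these differences in the collagen results was not tested. In bulk RNA, fewer cells of a type and less RNA per cell cannot be told apart.

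The genes that modify and assemble collagen were examined next, on a list of 43. Of these, 40 were tested, 7 rose and 1 fell (2.86% and 2.34% of all genes tested did), with a median log2 fold change of 0.51. The hydroxylases P4HA2 and P3H2 act on prolines and PLOD2 on lysines, and they rose by 1.02, 0.97 and 0.81 (adjusted p 0.000409, 0.000633 and 0.00362, edgeR quasi-likelihood). All 14 genes that the list groups under prolyl and lysyl modification had positive values, 3 of them called. SERPINH1, the collagen chaperone HSP47, rose from 937 and 1013 CPM to 1458 and 1753 CPM. ADAMTS2, which removes the propeptide of procollagens, rose from 68.8 and 91.7 CPM to 194 and 239 CPM, a log2 fold change of 1.43. Among crosslinking enzymes LOXL2 rose by 1.43 and LOX by 0.77. The cathepsin CTSK, which degrades collagen, was the only one called lower, from 41.4 and 33.0 CPM to 23.6 and 17.5 CPM. TLL1, TLL2 and DDR1 did not pass the filter. DDR1 had at most 8 counts in these libraries. It stood at 48.6 CPM in I79 young and at 65.1 and 61.7 CPM in ICM, which were counted in other ways. The reason was not tested. With WT replicate 1 or HMGB2 KD replicate 2 left out, 5 genes of the list were called instead of 8, and SERPINH1, LOX and CTSK were among those no longer called in both cases.

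Old against young asks what differs after passaging to senescence, with the 2 isolates as replicates and 1 residual degree of freedom. Of 44 members, 28 passed the filter and 2 were called, both higher, against 9.57% of the 15116 genes tested (5.75% higher and 3.82% lower). COL13A1 and COL7A1 both rose, while many other members had changes as large without passing the test. The median over the 28 was 0.17, and over all genes it was -0.01. The 16 members left out had at most 13 estimated counts in any column. Read within isolates with no test, 21 of the 28 lay past 0.6 in I79 (11 higher and 10 lower), against 41.2% of all genes (21.6% higher and 19.6% lower), and 13 lay past it in I10 (9 higher and 4 lower), against 37.3% (18.5% higher and 18.8% lower). When plain library totals replaced TMM, the split was 11 higher and 11 lower in I79 and 6 higher and 8 lower in I10, and log2 TPM gave 6 and 8 in I10 as well. These totals move the median of all genes by -0.16 in I79 and by -0.26 in I10.

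COL13A1, a collagen that spans the cell membrane (chromosome 10, 71561636 to 71724031, plus strand), stood at 15.2 CPM in I79 young and 42.3 CPM in I79 old, and at 19.5 and 40.2 CPM in I10 young and old. It rose by 1.26 over both isolates (SE 0.15, adjusted p 0.00798, edgeR quasi-likelihood). COL7A1 stood at 74.4 and 178 CPM in I79 young and old and at 60.0 and 121 CPM in I10, and rose by 1.14 (SE 0.11, adjusted p 0.00568, edgeR quasi-likelihood). Both old columns lay above both young columns in each gene. With no isolate term COL7A1 was not called (adjusted p 0.0167, edgeR quasi-likelihood). COL7A1 was thus higher in old cells and lower in HMGB2 KD, each in its own kind of table.

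Type VI chains did not keep their proportions. COL6A1 stood at 1854 and 4135 CPM in I79 young and old and at 1790 and 4388 CPM in I10, a log2 fold change of 1.23 that just missed the threshold (adjusted p 0.0115, edgeR quasi-likelihood). COL6A2 behaved alike, with 1584 and 3917 CPM in I79 and 1660 and 3703 CPM in I10 (1.23, adjusted p 0.0108, edgeR quasi-likelihood). COL6A3 had 7927 and 8962 CPM in I79 and 8260 and 8407 CPM in I10, a log2 fold change of 0.10 (adjusted p 0.751, edgeR quasi-likelihood). As counts of COL6A3 per count of COL6A1, the values were 4.28 and 2.17 in I79 young and old and 4.61 and 1.92 in I10. In WT and HMGB2 KD the same ratio lay between 2.33 and 2.66.

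The deposited transcript values of COL6A3 also differed with age. The transcript COL6A3-203 (9963 bases) took 44.9% of the gene's estimated counts in I79 young and 20.2% in I79 old, and 44.7% and 29.3% in I10. COL6A3-208 (8628 bases) took 49.1% and 66.0% in I79 and 48.8% and 59.8% in I10. Of 21 members with a mean of 500 or more estimated counts, 3 had a transcript whose share moved by over 10 points the same way in both isolates, COL6A3, COL18A1 and COL14A1. In COL18A1 the share of COL18A1-202 (5924 bases) went from 79.9% to 45.0% in I79 and from 69.8% to 42.0% in I10. The other main form, COL18A1-201 (3386 bases), went from 12.7% to 50.2% and from 25.4% to 51.4%. These shares come from 1 column per group and from estimates that split shared reads, and 4791 transcripts of the tables matched no annotated one.

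The type I chains also came apart. COL1A1 measured 11465 CPM (young) and 4885 CPM (old) for I79 and 10756 CPM and 7270 CPM for I10, with a log2 fold change of -0.90 that was not called (adjusted p 0.0636, edgeR quasi-likelihood). COL1A2 stood at 5076, 5283, 5246 and 7548 CPM in the same order (0.29, adjusted p 0.372). Counts of COL1A1 per count of COL1A2 were 2.26 in I79 young and 0.924 in I79 old, and 2.05 and 0.963 in I10. COL3A1 stood at 4104 CPM in I79 young and 1589 CPM in I79 old and at 3380 and 2300 CPM in I10, and it held its ratio to COL1A1, at 0.358 and 0.325 in I79 and 0.314 and 0.316 in I10. In both isolates COL1A1 and COL3A1 were lower in the old column, also with plain library totals. COL1A2 differed by 0.06 in I79 and 0.52 in I10, and with plain totals by -0.11 and 0.27, so its direction in I79 turned with the scaling.

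**Figure D3:**
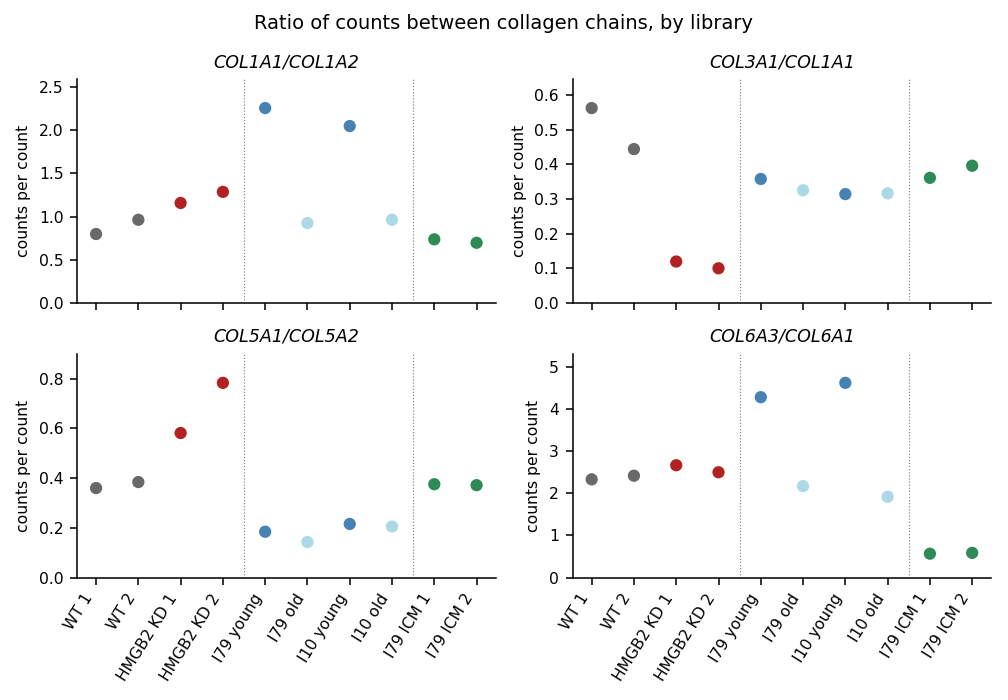
Counts of the first gene per count of the second (y axis, from 0) in each library (x axis) for 4 pairs of collagen chains, with dotted lines between the kinds of table. COL1A1 per COL1A2 is 2.26 and 2.05 in the young columns and 0.924 and 0.963 in the old, and COL3A1 per COL1A1 is lowest in HMGB2 KD.

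In HMGB2 KD the same ratios differed in another way. Counts of COL3A1 per count of COL1A1 were 0.563 and 0.444 in WT and 0.119 and 0.0998 in HMGB2 KD, a difference of -2.20 on the log2 scale. Counts of COL1A1 per count of COL1A2 were 0.798 and 0.963 in WT and 1.16 and 1.29 in HMGB2 KD, and those of COL5A1 per count of COL5A2 were 0.360 and 0.384 against 0.581 and 0.783. The groups did not overlap in any of these 3 ratios, each of which holds a gene called above in the same libraries. Nor did they overlap in COL4A1 per COL4A2 or COL6A3 per COL6A1. In COL6A1 per COL6A2 and COL4A5 per COL4A6 the groups overlapped. The share over other gene pairs was not computed, and 53.8% of single genes tested did not overlap. An exact two-sided permutation test gave p = 0.333 for each ratio without overlap, the smallest that 2 libraries against 2 allow.

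The remaining classes were mixed in old cells. COL15A1 stood at 71.2 and 159 CPM in I79 young and old and at 58.4 and 230 CPM in I10, with a log2 fold change of 1.57 just short of a call (adjusted p 0.01003, edgeR quasi-likelihood). COL18A1 had 65.9 and 23.7 CPM in I79 and 53.4 and 29.3 CPM in I10 (-1.17, adjusted p 0.0124). The COL18A1 level in these columns was far below the 665 and 649 CPM of WT, which was counted in another way, and the reason was not tested. Some transcripts of the young and old columns matched no annotated one, and whether any belong to COL18A1 was not checked. The COL18A1 values here, transcript shares included, may thus be incomplete. COL5A3 had the lowest value among members with counts in every column, -1.74 (adjusted p 0.0108), from 14.2 and 3.31 CPM in I79 and 11.0 and 4.20 CPM in I10. The 2 multiplexins thus stood on opposite sides of 0. COL12A1 had 2325 and 4422 CPM in I79 and 2304 and 4202 CPM in I10 (0.90, adjusted p 0.0237), and COL14A1, its relative, had 161 and 41.3 CPM in I79 and 93.8 and 65.1 CPM in I10 (-1.24, adjusted p 0.0547, all by edgeR quasi-likelihood). COL22A1 had 13 and 18 estimated counts in the young columns and 0 in the old, which allows up to 3 counts each. The pair COL4A5 and COL4A6 had 0.57 and 0.50, and COL4A1 and COL4A2 had -0.22 and 0.23, none of them called.

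**Figure D4:**
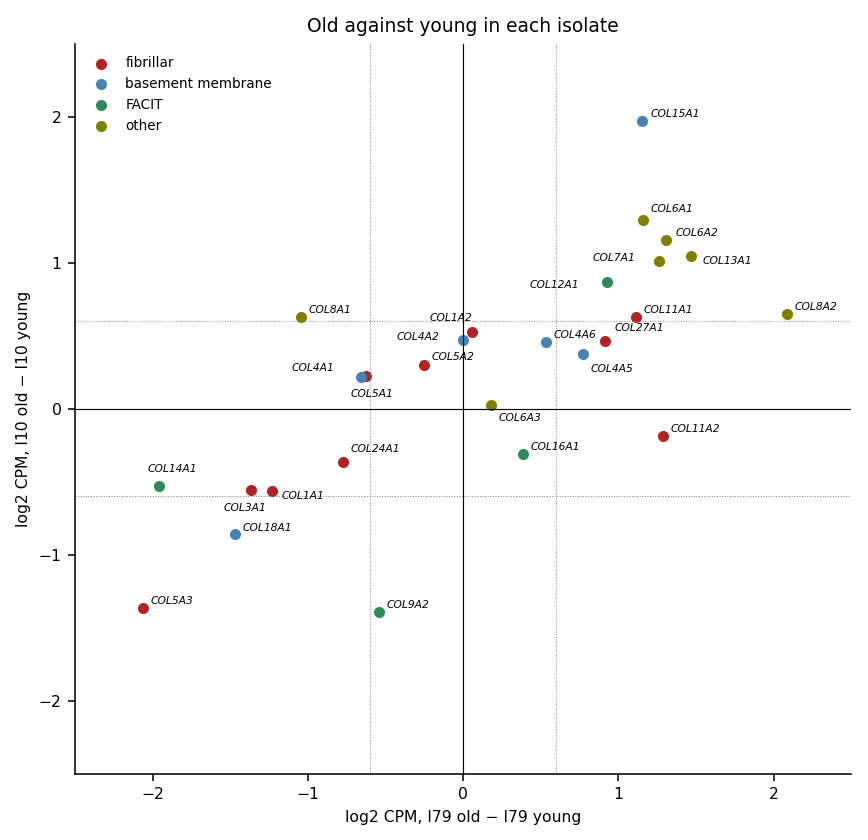
Difference in log2 CPM between old and young in I79 (x axis) and in I10 (y axis) for each tested collagen gene except COL22A1, coloured by class, with dotted lines at 0.6 in each direction. With TMM scaling COL8A1 alone lies past 0.6 in opposite directions, at -1.05 in I79 and 0.63 in I10.

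With TMM scaling the isolates had the same sign for 21 of the 28 members and opposite signs for 7. Past 0.6 in both isolates were 12 members, 11 of them in the same direction. The matching shares over all genes tested were not computed, so these counts are not read as a trait of collagens. COL4A1 and COL5A1 lay past 0.6 in I79 (-0.66 and -0.62) and on the other side of 0 in I10 (0.22 and 0.23), but with plain library totals both were below 0 in I10 as well (-0.04 and -0.03). In these libraries the immune marker CD68 was higher in old cells, and the summed immune list stood at 21.6 to 23.3 CPM in young and at 84.7 to 158 CPM in old columns, with CD3E at 0. The summed muscle list stood at 158 to 204 CPM in young and 55.4 to 58.4 CPM in old columns, and the fibroblast list at 6713 to 6865 CPM and 11088 to 13577 CPM. The epithelial list summed to 3.52 to 7.82 CPM in young and 1.60 to 1.95 CPM in old columns, and the endothelial list to 0.365 to 0.448 CPM and 2.49 to 2.82 CPM. The part of these in the collagen values was not tested.

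The processing list had 41 of 43 members tested in old against young, of which 6 rose and 2 fell (5.75% and 3.82% of all genes tested did), with a median of 0.55. All 5 crosslinking enzymes had positive values. LOXL3 stood at 23.2 and 122 CPM in I79 young and old and at 18.1 and 101 CPM in I10, a rise of 2.44 (adjusted p 0.00324, edgeR quasi-likelihood). LOX rose by 2.01 and LOXL2 by 1.77. P3H2, a proline 3-hydroxylase, had the largest change of the list, 3.46, from 21.4 and 20.8 CPM in young to 175 and 307 CPM in old columns, and P4HA2 rose by 1.20. The collagen-binding integrin ITGA10 rose by 2.92 from 0.640 and 0.835 CPM. P4HA3 fell by 1.60, and ADAMTS3, a remover of procollagen ends, fell by 3.02. With counts remade from TPM and length, ADAMTS3 and ITGA10 were not called (adjusted p 0.0156 and 0.0107, edgeR quasi-likelihood). P4HA2, P3H2, LOX and LOXL2 were also among the genes called higher in HMGB2 KD.

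ICM libraries could be set against I79 young only across tables that were counted in different ways, so no test was run. Collagens stood lower in ICM in nearly all members compared. A filter on low counts over the ICM, young, old and WT libraries together kept 33 members. Of these, 29 lay past 0.6, 4 higher and 25 lower, against 61.3% of all 15257 genes (31.9% higher and 29.4% lower). Some members on each side had few or no reads in ICM. The median difference was -1.99 for the collagens and 0.02 for all genes. WT minus I79 young, also a comparison across kinds of table, had 20 of 33 past 0.6, 11 higher and 9 lower. Of all genes 45.2% lay past 0.6 (20.9% higher and 24.3% lower), and the collagen median was 0.15. WT was counted in another way than ICM, so these values do not measure the shift that the ICM table brings. WT also stood apart from I79 young in HMGB2 (28.8 and 28.9 against 133 CPM) and CDKN1A (1234 and 1265 against 388 CPM). The part of the ICM table in the collagen values was not tested. Of the 33, 29 stood lower in ICM than in WT, as did 48.3% of all genes. How far the table or the treatment set these values cannot be told apart.

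COL6A3 was the lowest, at 402 and 469 CPM in the ICM libraries, 8691 CPM in I79 young and 4844 and 5790 CPM in WT, a difference of -4.32 between ICM and I79 young. COL6A1 stood at 710 and 801 CPM in ICM and 2033 CPM in I79 young, and COL6A2 at 523 and 595 CPM against 1737 CPM. The type VI chains therefore differed among themselves here too, with 0.566 and 0.585 counts of COL6A3 per count of COL6A1. COL1A1 stood at 3031 and 2957 CPM against 12569 CPM (-2.07), whereas COL1A2 stood at 4117 and 4249 CPM against 5565 CPM (-0.41). COL3A1 stood at 1095 and 1172 CPM against 4500 CPM (-1.99). In type IV, COL4A1 and COL4A2 were at -2.41 and -2.01 and COL4A5 and COL4A6 at -2.42 and -2.75, so that both printed pairs lay far below I79 young. COL18A1 stood higher, at 139 and 153 CPM against 72.2 CPM, but WT had 706 and 686 CPM of it.

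**Figure D5:**
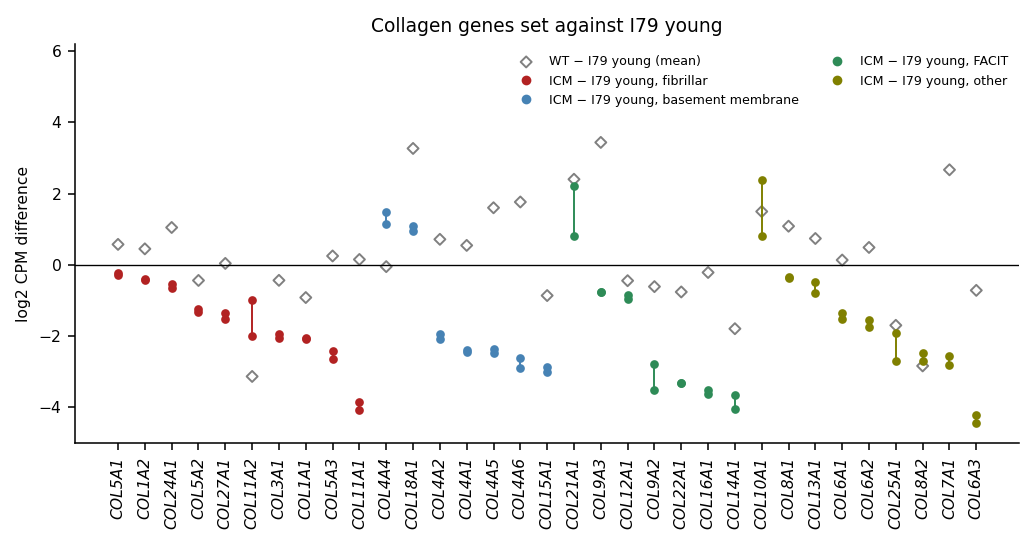
Difference in log2 CPM from I79 young (y axis) for each of 33 collagen genes, with both ICM libraries joined by a line and coloured by class and the mean of WT as an open diamond. Most ICM points lie below 0, the lowest being COL6A3, and the WT diamonds lie on both sides.

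Counting coding and noncoding-gene reads only in the ICM libraries, the members past 0.6 became 27 (4 higher and 23 lower) and the median -1.37, and COL1A2 moved to 0.19 and COL5A1 to 0.01. Reads on coding regions made up 88.3% of collagen reads in both ICM libraries and 61.1% and 61.9% of all reads. By class, the medians were -1.46 for fibrillar, -2.41 for basement membrane, -3.14 for FACIT and -1.64 for other collagens, over 10, 7, 7 and 9 members. The FACIT median is the value of COL9A2, which had 7 and 3 ICM reads. COL9A3 and COL22A1 were counted as lower with 0 reads in both ICM libraries. They stood at only 0.0702 and 0.912 CPM in I79 young, so their values rest largely on the prior count. The 4 members past 0.6 on the higher side were COL18A1 and 3 genes with at most 5 reads in either library, COL4A4, COL10A1 and COL21A1. The processing list was spread around 0, with a median of 0.01 over 42 genes, of which 21 lay past 0.6, 9 higher and 12 lower, a smaller share than the 61.3% of all genes. PCOLCE, which enhances the removal of procollagen ends, was the lowest of that list at -4.78, and P3H2 the highest at 3.80, which in WT was 2.24. The values of PCOLCE and P3H2 were picked as the ends of the list.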

How the data were processed

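RNA-seq tables of IMR90 were used as deposited. Raw gene counts were deposited by the authors for WT and HMGB2 KD. For young and old cells they deposited estimated counts and TPM per transcript, together with transcript length. For ICM they deposited estimated (expected) counts per gene and transcript region. The submitters' processing notes name STAR 2.6.0c, featureCounts, DESeq2 and GRCh37, and which of these made which table is not given in the sources used here. Rows that name no gene (16.9% to 18.0% in WT and HMGB2 KD) were left out.

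Transcripts were summed per gene through GENCODE v44 lifted to GRCh37 (97.7% of IDs matched, with 97.2% to 97.4% of counts) and rounded. Tests used edgeR 4.0.16 in R 4.3.3 (quasi-likelihood, TMM, filterByExpr, Benjamini-Hochberg over all genes). A call needed an adjusted p below 0.01 and a change of more than 0.6 on the log2 scale, as in the methods of the study. Old against young had isolate as a covariate, and ICM was compared on log2 CPM with a prior count of 2. CPM values are TMM-scaled. Those given beside ICM were scaled over the genes shared by all tables. The standard error is the fold change over the square root of F.

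The collagen classes, the processing list, the markers and the tests were chosen with earlier results of these data known. Named in full were the called members and the 5 most abundant in each comparison, and up to 8 called genes of the processing list. No replicates were duplicates: chi-square per degree of freedom was 18.0 in WT, 28.0 in HMGB2 KD and 1.71 in ICM. On simulated counts with 200 genes changed by 1.5 (log2), 80.5% were recovered in the knockdown design of 15338 genes, with 5 false calls. In the old and young design of 15116 genes 79.0% were recovered, with 28 false calls. In both designs the false calls were more than an adjusted p below 0.01 aims at. The simulated old and young counts held no difference between isolates, and their spread came from a fit with 1 residual degree of freedom. They therefore describe that setting only. Alternatives were other scalings, tools (DESeq2 1.42.0), filters, thresholds, a replicate block, 1 RUVs factor and leaving out libraries. Reads carry no molecular identifiers, so intervals and limits cover counting error only.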

Additional observations from a re-analysis of the deposited data

Results flagged for a closer look

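COL8A1, a short-chain collagen of type VIII, lay past 0.6 in opposite directions in the 2 isolates when old was set against young. It stood at 180 CPM in I79 young and 87.0 CPM in I79 old (2810 and 1603 estimated counts) and at 151 CPM in I10 young and 234 CPM in I10 old (2901 and 4231 estimated counts). The log2 difference was -1.05 in I79, with a 95% exact counting interval from -1.14 to -0.96, and 0.63 in I10, with an interval from 0.56 to 0.70. The 2 isolates were 1.67 apart on the log2 scale (I79 minus I10, -1.67). With plain library totals the differences were -1.21 and 0.37, still of opposite sign. With 1 column per group the difference between isolates was not tested. In HMGB2 KD against WT the same gene had a log2 fold change of -0.01.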

How the results depend on the processing

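In HMGB2 KD against WT, the 9 collagen calls became between 3 and 12 when a library was left out, and 9 to 13 under every other alternative. The processing calls went from 8 to 13 with the replicate block and ranged from 5 to 10 when a library was left out. All calls went from 797 to 1243 with the replicate block and to between 312 (without HMGB2 KD replicate 2) and 999 without a library. The replicate block called 12 collagens. WT and HMGB2 KD share only a number in the labels (correlation of replicate differences across genes 0.12, with 2 pairs), so no pairing is read from it.

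Old against young has 1 residual degree of freedom, and its counts moved most. The 2 collagen calls became 5 with DESeq2 size factors, 10 with the DESeq2 Wald test, 15 with no filter, 6 with no isolate term, 6 with counts remade from TPM and length, and 12 at an adjusted p under 0.05. The 8 processing calls became 21 with the Wald test, 23 with no filter and 22 at 0.05, and 11, 12 and 9 under the other 3. The 1447 calls over all genes became 2167, 4251 and 3860 under those first 3 settings and between 1362 and 1753 under the others. Counts of members past 0.6 within isolates were 22 and 19 in I79 and 14 and 14 in I10 under plain totals and log2 TPM. In ICM they lay between 27 and 30. Single named genes were tallied in HMGB2 KD against WT and in old against young over both isolates only. There, 255 alternative values kept their direction and side of the threshold, 23 lost the call, 12 gained it and none turned direction. Values within isolates and in ICM were not part of this tally, and some of them turned direction. Among these was COL1A2, in I79 (0.06, but -0.11 with plain totals) and in ICM (-0.41, but 0.19 with coding and noncoding-gene reads only). Precision is limited by 2 libraries or 1 column per group.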

Other observations

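The isolates could also be compared when young. COL4A6 stood at 35.3 CPM in I79 young and 14.4 CPM in I10 young (-1.29 for I10 minus I79) and its head-to-head neighbour COL4A5 at 136 and 85.7 CPM (-0.67). In the old columns the pair stood at -1.37 and -1.07, so both were lower in I10 at either age. When young, COL14A1 was at 161 and 93.8 CPM (-0.78) and COL11A1, a fibrillar chain of cartilage, at 12.2 and 25.1 CPM (1.04). In the old columns COL14A1 stood the other way, at 41.3 CPM in I79 and 65.1 CPM in I10 (0.65). COL11A1 kept its direction there, at 26.5 and 38.9 CPM (0.55). Each group had 1 column and no test was run.

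The members that share exons with another annotated gene were counted because the use of strand in the counting is not stated. These were 14 of the 44, and 3 overlap a protein-coding gene: COL18A1 overlaps SLC19A1, COL19A1 overlaps LMBRD1 and COL9A3 overlaps TCFL5, each on the opposite strand. COL1A1, COL4A2, COL4A3, COL5A1, COL5A3, COL9A1, COL15A1 and COL16A1 overlap lncRNAs of the opposite strand, and their values may hold reads of these. COL7A1, COL8A1 and COL17A1 overlap a microRNA gene.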
